A study of Mus musculus with 23 samples.

Results

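Histone genes were taken as the genes whose GENCODE vM21 symbol begins with Hist1h, Hist2h, Hist3h, Hist4h, H1f, H2af or H3f. The rule found 82 of 22350 genes in the mRNA libraries, 80 of 22230 in the ribosome footprint libraries of organoids and 81 of 22314 in the footprint libraries of mice. Of these genes, 67 carry a Hist symbol and are called cluster genes here, with 6 for the linker histone H1, 18 for H2A, 18 for H2B, 12 for H3 and 13 for H4. The other 15 are variant genes, with 4 for H1, 9 for H2A and 2 for H3. On the mm10 genome, 54 cluster genes lie on chromosome 13 between 21715763 and 23934851, 10 on chromosome 3 between 96219865 and 96270132, 2 on chromosome 11 and 1 on chromosome 6. A further 9 annotated symbols match the rule and have no entry in the mRNA files used here.

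The study profiled mRNA and ribosome-protected footprints in intestinal organoids, epithelial cultures grown from crypts of C57BL/6 mice aged 8 to 12 weeks, and footprints in mouse intestine. WT organoids (VillinCre.ERT2.RPL22.HA) in ENR medium and Rptor fl/fl organoids (VillinCre.ERT2.Rptor.fl/fl) each had 2 lines with 2 technical mRNA libraries a line. Stem cell enriched (SCe) organoids had the WT genotype and were grown with 10 µM CHIR 99021, an inhibitor of GSK3, and 1.5 mM valproic acid, an inhibitor of histone deacetylases, with 3 mRNA and 3 footprint libraries. The 2 agents were always given together and cannot be told apart. Footprints of Rptor fl/fl organoids came from 3 lines of VillinCre.ERT2.Rptor.fl/fl.RPL22.HA, so that this group differs from SCe organoids in genotype and in medium, which cannot be told apart. Mouse footprints came from small intestine, with 3 animals a group, WT (Lgr5Cre.ERT2.RPL22.HA) or Rptor fl/fl (Lgr5Cre.ERT2.Rptor.fl/fl.RPL22.HA). Villin drives Cre throughout the intestinal epithelium and Lgr5 in crypt base stem cells. Footprints were taken from ribosomes pulled down by the HA tag on RPL22. The labels call all groups but SCe untreated, whereas the methods of the study describe Cre induction with tamoxifen.

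Core histones H2A, H2B, H3 and H4 form the nucleosome, around which DNA is wound, and H1 binds the DNA between nucleosomes. The cluster genes are mostly replication-dependent: they are transcribed in S phase, and most of their mRNAs end after a stem-loop bound by the protein SLBP and lack a poly(A) tail. The variants are made outside S phase too, from mRNAs with a poly(A) tail, and are put into chromatin in a separate way. In the intestine, histone synthesis for replication takes place in the dividing cells of the crypts. The mRNA libraries were made from poly(A) RNA, and the footprint libraries were not.

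The stem-loop distinguishes these mRNA classes, so it was searched for on the coding strand within 150 bases after each stop codon, as 16 bases of the form GGNNNNTNTNNNNNCC with at least 5 of 6 stem pairs. It was found in 62 of 67 cluster genes, in 1 of 15 variant genes and in 137 of 21582 other protein-coding genes (0.635%). The 5 cluster genes without it were Hist2h2be, Hist1h2an, Hist1h2bp, Hist1h2bq and Hist1h2br. The form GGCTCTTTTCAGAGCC was the most frequent, with 38 genes, followed by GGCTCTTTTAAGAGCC with 9 and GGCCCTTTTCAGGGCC with 8. The following 7 are shown because the results below turn on these genes. They were read from the GRCm38 (mm10) genome of RefSeq, with the stem-loop in capitals and 5 flanking bases on each side in lower case.
Hist1h1c, chr13:23739507-23739532, + strand: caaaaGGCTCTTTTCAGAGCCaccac
Hist3h2ba, chr11:58949344-58949369, + strand: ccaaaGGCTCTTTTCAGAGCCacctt
Hist2h2aa2, chr3:96239779-96239804, - strand: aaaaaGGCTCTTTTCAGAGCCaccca
Hist2h3c2, chr3:96238480-96238505, - strand: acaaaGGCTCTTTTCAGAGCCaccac
Hist1h4i, chr13:22040961-22040986, - strand: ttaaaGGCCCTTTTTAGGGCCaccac
Hist1h4m, chr13:21812124-21812149, + strand: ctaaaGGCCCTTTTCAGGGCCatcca
H2afx, chr9:44335235-44335260, + strand: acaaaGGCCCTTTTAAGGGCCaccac
Each lies in the 3′ untranslated sequence, 25 bases after the stop codon in Hist1h1c, 29 in Hist3h2ba and 47 in H2afx. H2afx, the H2A variant phosphorylated at DNA breaks, was the variant gene with a match.

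Estimated counts summed to between 23802944 and 67598878 per mRNA library, 1106178 and 8257457 per organoid footprint library and 772077 and 8238388 per mouse footprint library. Rptor mRNA was 51.5 and 47.9 CPM (counts scaled to the same library total) in WT lines, 14.8 and 15.5 in lines labelled Rptor fl/fl, and 60.8, 54.0 and 53.6 in SCe lines (log2 Rptor fl/fl over WT -1.71, SE 0.08, adjusted p = 0.00516, edgeR). Rptor footprints did not separate the labels as clearly. In organoids they were 17.3, 18.7 and 15.9 CPM in Rptor fl/fl and 15.2, 41.8 and 21.0 in SCe (adjusted p = 0.318, edgeR), and in mice 32.5, 34.3 and 36.7 in Rptor fl/fl and 41.5, 39.5 and 44.5 in WT (adjusted p = 0.15, edgeR). Epithelial markers were present in every group, at 3792 CPM or more. In mice, immune markers also reached 3418 to 3855 CPM, while in organoids they stayed below 7 CPM. SCe replicate 1 stood apart in mRNA: its chi-square per gene against SCe replicates 2 and 3 was 192 and 172, against 19.8 between those 2. Results that rest on it are also given without it. The stem cell markers went against the SCe label in part: Olfm4 mRNA was 135, 42.2 and 52.9 CPM in SCe lines and 2864 and 4434 in WT lines, and Ascl2 was lower too, whereas Lgr5, at 337, 222 and 219 against 215 and 197, and Smoc2 were higher in every SCe line than in every WT line. In footprints labelled Rptor fl/fl, Olfm4 was 4313, 4665 and 4460 CPM, against 415, 850 and 1158 in SCe footprints, while Rptor fl/fl mRNA lines had 521 and 1680. The 5 stem cell markers summed to 4986 to 5318 CPM in those Rptor fl/fl footprints and 1548 to 3043 in SCe. With Rptor footprints overlapping too, neither gene checks the label of the Rptor fl/fl footprints.

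Many histone genes share nearly all of their coding sequence, and the program that counted the reads divided shared reads between them. Of the 29-base stretches of the coding sequence, the median share found in no other gene was 83.0% for H1 cluster genes, 10.8% for H2A, 14.0% for H2B, 9.0% for H3 and 20.8% for H4. Single genes of the last 4 classes are therefore uncertain, and sums over a class are given beside them. Hist2h2aa1 and Hist2h2aa2 have the same coding sequence, and in the mRNA libraries all reads of the pair were assigned to the first while in footprints all were assigned to the second. The methods state that duplicated sequences were removed before footprints were counted, and Hist2h2aa1 has no entry in the organoid footprint files. Hist1h2ap, the same as Hist1h2ao, has none in either set of footprint files. Hist3h2a and Hist1h2br were listed at 0 in every footprint library, and no 29-base stretch of Hist3h2a was its own.

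Cluster genes made up a small share of the mRNA libraries and a large share of the footprints. They held between 0.00764% and 0.0472% of mRNA reads, against 3.07% to 7.97% of organoid footprints. Variant genes held between 0.178% and 0.357% of mRNA reads and 0.437% to 0.650% of organoid footprints. In mRNA the variants thus exceeded the cluster genes in every library, and in footprints the cluster genes exceeded the variants in every library. In mice, cluster genes held between 0.622% and 0.858% of footprints. In these bulk samples, fewer cells of a type and less RNA per cell cannot be told apart.

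**Figure D1:**
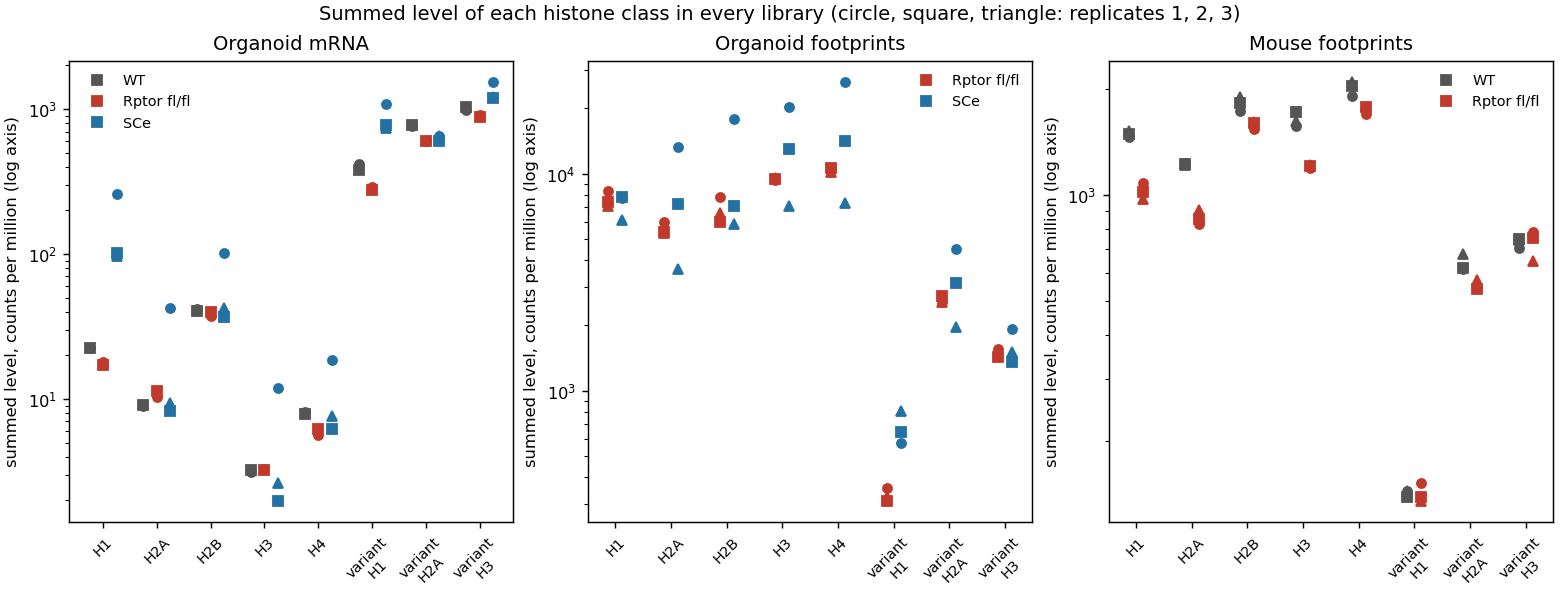
Summed level of each histone class in CPM (log axis) for every library, with organoid mRNA at the left, organoid footprints in the middle and mouse footprints at the right. In mRNA the 3 variant classes lie above the 5 cluster classes, in footprints the order is turned, and in mice each of the 5 cluster classes is lower in all 3 Rptor fl/fl animals than in all 3 WT animals.

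**Figure D2:**
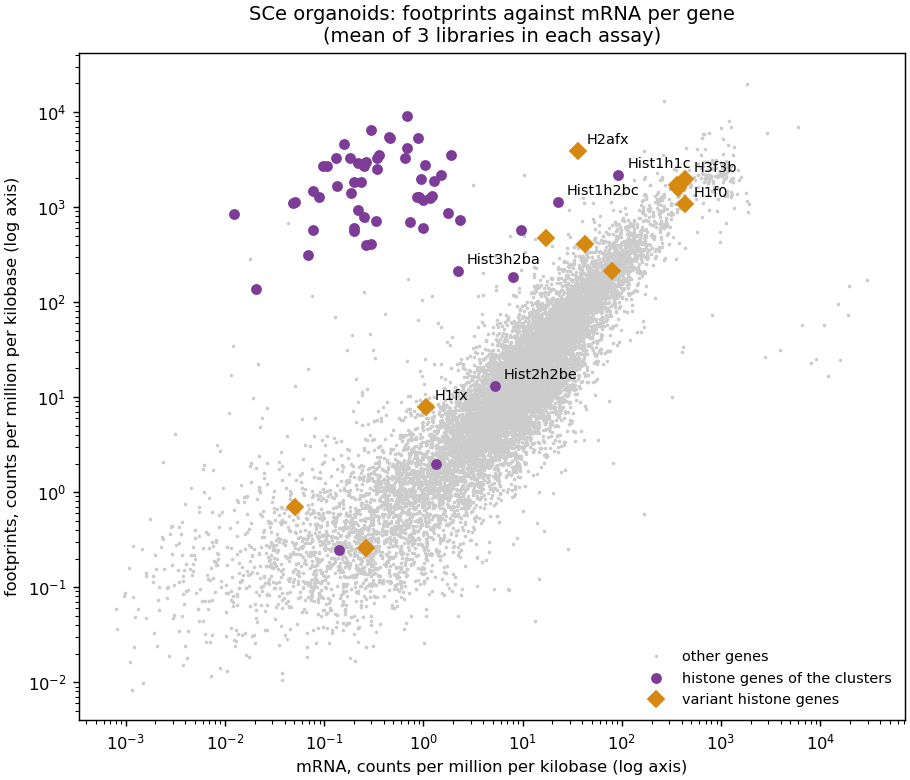
Footprints against mRNA in SCe organoids, each point being a gene at its mean over 3 libraries in CPM per kilobase (log axes). Most cluster genes (purple) form a group far above the other genes (grey), most variant genes (orange) lie close to the other genes, and so does Hist2h2be. Genes at 0 in either assay are not drawn.

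Footprints were compared with mRNA per gene within SCe organoids and within Rptor fl/fl organoids, by edgeR with the effective length of each gene as an offset. In the Rptor fl/fl group the footprint lines carried RPL22.HA and the mRNA lines did not by label. There, assay and line cannot be told apart. In SCe organoids, 68 of 71 tested histone genes were higher in footprints and 1 was lower, where 20.5% and 27% of all tested genes were. In Rptor fl/fl organoids, 68 of 70 were higher and 1 lower, against 34.5% and 41.1% of all tested genes. The median log2 ratio of footprints to mRNA was 11.9 over 61 cluster genes and 2.21 over 10 variant genes in SCe organoids, and 12.4 over 62 and 2.90 over 8 in Rptor fl/fl organoids, where the median over all genes was -0.19 and -0.15. The gene called lower was Hist3h2a, and it lost the call in SCe organoids without any of the 3 footprint libraries. In SCe organoids 12 of these genes had fewer than 10 mRNA reads in all, and in Rptor fl/fl organoids 32 did. With genes lacking any mRNA read set to the fold that 3 reads over the group would give, the median over all members was 11.1 and 11.9. Poly(A) selection and the amount of mRNA cannot be told apart in this ratio, which is therefore not a measure of translation for these genes.

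Cluster genes differed in how far footprints exceeded mRNA. The smallest log2 ratio among those called higher was that of Hist2h2be, at 1.55 (SE 0.52) in SCe and 1.95 (SE 0.28) in Rptor fl/fl organoids. Its mRNA was 23.3, 8.49 and 8.25 CPM in SCe lines, its footprints 6.98, 4.78 and 5.16, it had no stem-loop match, and its longest annotated 3′ untranslated region had 2192 bases. Without the length offset its ratio was -1.02 and -0.66. Hist1h1c, a linker histone gene with an annotated 3′ untranslated region of 880 bases, followed in SCe organoids at 4.03 (SE 0.42). Hist1h4i was at 4.85 (SE 0.82), Hist1h2bc at 5.66 (SE 0.55) and Hist3h2ba at 6.16 (SE 0.49). The coding sequence of Hist1h4i was 20.1% its own and that of Hist1h2bc 0%. Their footprints thus depend on how shared reads were divided. Among variants, H2afx had the highest ratio, 6.60 (SE 0.56) in SCe and 6.09 (SE 0.14) in Rptor fl/fl organoids, with 64.7, 36.4 and 46.3 CPM of mRNA and 2799, 1936 and 867 CPM of footprints in SCe lines. The other called variants lay between 0.60 for H2afy, which encodes macroH2A1, and 4.86 for H2afj in SCe organoids. The coding sequence of H2afx was 69.1% its own and that of H2afj 82.9%, against 100% in the other tested variants. How shared reads were divided can thus enter the ratios of H2afx and H2afj.

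Of the 67 cluster genes, 24 have an annotated transcript with a 3′ untranslated region over 200 bases, as polyadenylated histone transcripts do. Between 90.5% and 97.0% of all cluster mRNA reads were assigned to such transcripts, and in the H1 class between 98.2% and 99.5%. Within a gene the share was often set by its annotation. It was 100% for Hist1h1c and Hist1h2bc and 0% for Hist1h1a and Hist1h2bg in every mRNA line. The share thus depends on which genes had reads, and does not show where on a transcript the reads fell. In footprints against mRNA, the 22 such genes tested in SCe organoids had a median log2 ratio of 10.3, and the 39 cluster genes without such a transcript 12.3.

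The genes with the highest level per length also differed by symbol between the assays. In mRNA, averaged over the 7 lines, they were Hist1h1c at 45.2 CPM per kilobase and Hist1h1b at 0.694 for H1, Hist3h2a at 4.31 and Hist2h2aa1 at 3.40 for H2A, and Hist1h2bc at 22.4 and Hist1h2bg at 4.57 for H2B. For H3 they were Hist2h3c1 at 1.14 and Hist1h3g at 0.571, and for H4 Hist1h4i at 5.39 and Hist1h4k at 1.20. The level of the H1 class in mRNA was thus mostly that of Hist1h1c. SCe line 1 set several of the lower ranks: without it Hist1h1b was at 0.255, below Hist1h1e at 0.371, Hist3h2a was below Hist2h2aa1, Hist2h2be was second for H2B and Hist4h4 second for H4. In organoid footprints the leading genes were Hist1h1d at 3077 and Hist1h1b at 2328 CPM per kilobase for H1, Hist2h2aa2 at 5032 and Hist1h2ao at 2096 for H2A, and Hist1h2bp at 7939 and Hist2h2bb at 2756 for H2B. They were Hist2h3c2 at 5247 and Hist1h3i at 3079 for H3, and Hist1h4d at 4893 and Hist1h4h at 4779 for H4. By symbol, Hist1h1b was the gene that led in both assays, and without SCe line 1 none did. Hist2h2aa1 in mRNA and Hist2h2aa2 in footprints have the same coding sequence, however. That H2A sequence was thus among the leading 2 in both assays, with and without SCe line 1. For genes that share their sequence, a difference in rank can follow the assignment of reads.

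The comparison of SCe with WT organoids asks how the enrichment medium changed the mRNA. The linker histone genes Hist1h1c, H1f0 and H1fx, the H2B gene Hist3h2ba and the H3.3 gene H3f3b were higher in SCe organoids, and H2afv, H2afz and H3f3a were lower. These were 5 and 3 of 48 tested histone genes, against 22.4% and 19.9% of all tested genes, so that both shares lay below the background. The median log2 difference was 0.77 over the 48 genes, 1.04 over 38 cluster genes and 0.01 over 10 variants, and 0.02 over all genes. The 6 epithelial markers summed to 3792, 4221 and 4083 CPM in SCe and 6060 and 6384 in WT lines, and Krt20, a marker of mature enterocytes, was 3.78 CPM in SCe line 1, 80.6 and 75.4 in lines 2 and 3, and 132 and 117 in WT. Their part in the result was not tested.

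Hist1h1c mRNA was 229, 98.5 and 94.8 CPM in SCe lines 1, 2 and 3 and 20.7 and 21.2 in WT lines (log2 2.77, SE 0.48, adjusted p = 0.0105, edgeR). H1f0, the linker histone H1.0 known from cells that have stopped dividing, was 1085, 774 and 744 CPM against 419 and 383 (log2 1.14, SE 0.20, adjusted p = 0.0103). Every SCe line was above every WT line in both genes, and SCe line 1 was the highest. Hist3h2ba, an H2B gene of chromosome 11 whose coding sequence is 84.7% its own, rose from 0.0944 and 0.0807 CPM in WT to 1.51, 1.43 and 1.37 (log2 4.01, SE 0.32, adjusted p = 0.00178). H1fx, the linker histone H1.10, was 0.569, 1.55 and 1.82 CPM in SCe and 0.0755 and 0.141 in WT (log2 3.62, SE 0.71, adjusted p = 0.0146). These 2 genes had low levels, and SCe line 1 was the lowest for H1fx.

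H3f3a and H3f3b encode the same protein, the replacement histone H3.3, and their mRNAs differed from WT in opposite directions. H3f3b was 1147, 789 and 819 CPM in SCe and 507 and 521 in WT (log2 0.86, SE 0.19, adjusted p = 0.0205, edgeR), whereas H3f3a was 390, 403 and 390 against 479 and 510 (log2 -0.31, SE 0.07, adjusted p = 0.0249). The H2A.Z genes H2afz, at 361, 338 and 374 CPM against 442 and 447 (log2 -0.29, SE 0.08, adjusted p = 0.0321), and H2afv, at 38.6, 45.3 and 44.6 against 74.0 and 89.4 (log2 -0.91, SE 0.12, adjusted p = 0.00527), were lower. The groups did not overlap in any of these 4 genes.

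Summed over the class, H1 cluster mRNA was 258, 101 and 97.7 CPM in SCe and 22.3 and 22.4 in WT, 6.82 times as high on average and 4.45 times without SCe line 1. The 4 core classes overlapped between the groups. H3, for example, was 11.9, 1.96 and 2.65 CPM in SCe and 3.12 and 3.23 in WT, with line 1 above and lines 2 and 3 below both WT lines, and H2B was 102, 36.6 and 42.7 against 42.0 and 40.2. Without SCe replicate 1, 11 histone genes were higher and 9 lower, the median over members was -0.14, and 31.9% and 32.2% of all genes were called. Hist1h1c, Hist3h2ba, H1f0, H1fx, H3f3b, H2afv, H2afz and H3f3a kept their calls, and Hist1h1b (1.83) and Hist1h1e (1.35) were then also higher. Without WT line 1 or without WT line 2, which leaves a lone WT line that is assumed to vary like the other group, 1 gene was higher and 1 lower, Hist3h2ba and H2afv, and without SCe replicate 2 or 3 the count of lower genes was 1. DESeq2 called 11 genes higher, a count without the share of all genes beside it. With the replicate number as a block, 1 was lower, and H3f3b (adjusted p = 0.0541), H3f3a (0.161) and H2afz (0.137) lost their calls. H3f3a also lost it with the effective length as an offset (0.123).

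**Figure D3:**
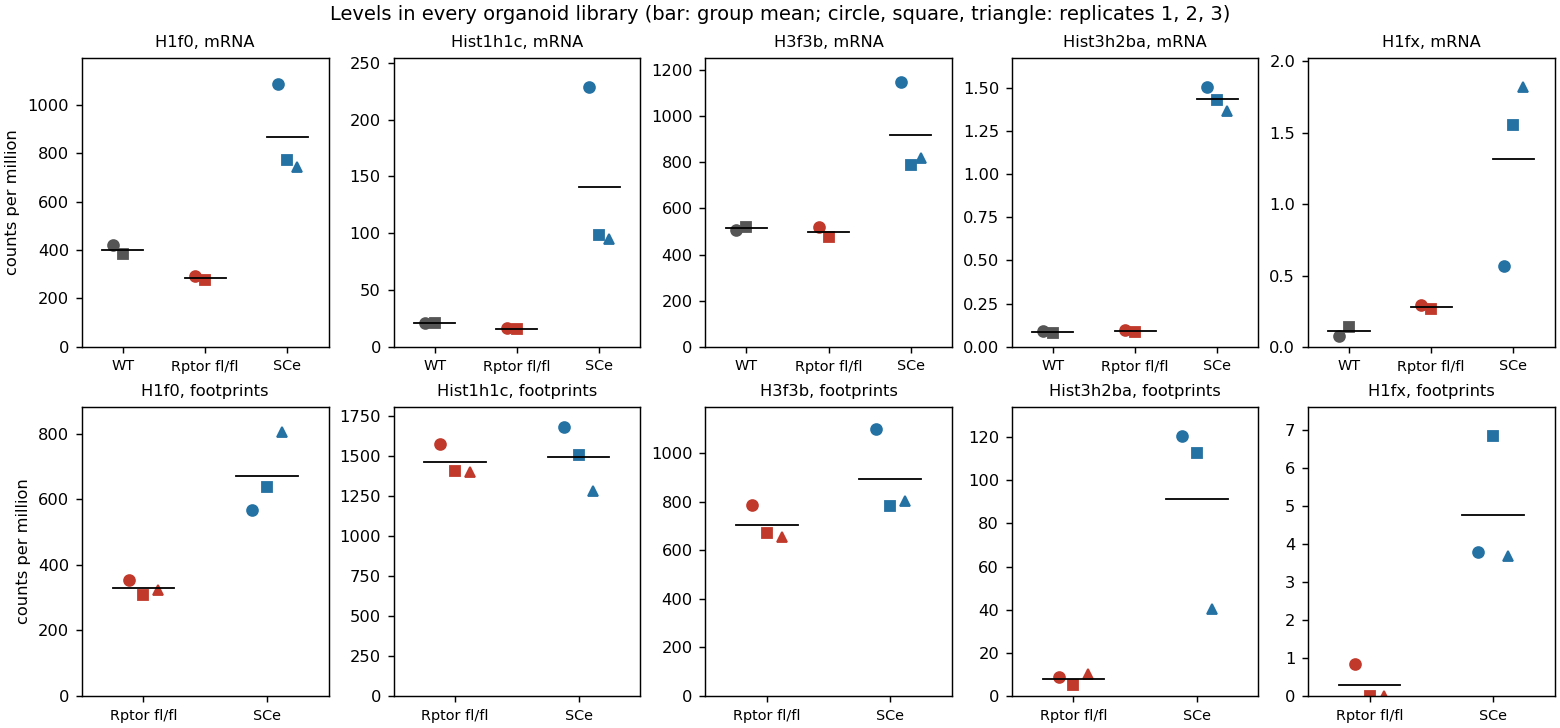
Levels in CPM of 5 histone genes in every organoid library, mRNA in the upper row and footprints in the lower row, with the bar at the group mean. In mRNA every SCe line is above every WT and Rptor fl/fl line in all 5 genes, and in footprints the groups separate for H1f0, Hist3h2ba and H1fx but overlap for Hist1h1c and H3f3b.

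The comparison of Rptor fl/fl with WT organoids asks how mRNA differed between lines labelled with and without loss of Raptor, a part of the kinase complex mTORC1. By label the WT lines carry RPL22.HA and the Rptor fl/fl mRNA lines do not. Loss of Raptor and the tag cannot be told apart here. Of 33 tested histone genes, 6 were lower and 0 higher, against 11% and 11.6% of all tested genes. Without adjustment, 7 were lower and 2 higher at p under 0.05, and DESeq2 also called none higher. These counts have no share of all genes beside them and compare settings only. H1f0 was 292 and 274 CPM in Rptor fl/fl lines and 419 and 383 in WT (log2 -0.50, SE 0.08, adjusted p = 0.0205, edgeR), and Hist1h1c was 16.3 and 15.5 against 20.7 and 21.2 (log2 -0.40, SE 0.08, adjusted p = 0.0314). H2afz was 314 and 303 CPM against 442 and 447 (log2 -0.53, SE 0.06, adjusted p = 0.0147), and H2afv 44.2 and 56.6 against 74.0 and 89.4 (log2 -0.70, SE 0.15, adjusted p = 0.0388). H3f3a was at 391 and 409 against 479 and 510 (log2 -0.31, SE 0.07, adjusted p = 0.0476), and Hist1h4i at 2.15 and 1.59 against 4.01 and 3.27 (log2 -0.96, SE 0.24, adjusted p = 0.0487). In all 6 genes both Rptor fl/fl lines were below both WT lines. The same lines also separated in the stem cell markers, which summed to 803 and 2042 CPM against 3560 and 5128, and in the S phase genes, at 1764 and 1582 against 1893 and 1822, and the part of these in the result was not tested. H3f3a was not called without the count filter (adjusted p = 0.0513), and neither H3f3a (0.0555) nor Hist1h4i (0.0526) was with the effective length as an offset.

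With 2 lines a group these calls rested on each line. Without WT line 2 none of the 6 genes was called, without WT line 1 only 1 was, and without either Rptor fl/fl line 2 were. None of the 6 kept its call in all 4 fits. Without WT line 1, 1 gene was called higher. H1 cluster mRNA was 18.1 and 17.3 CPM in Rptor fl/fl and 22.3 and 22.4 in WT, and H4 cluster mRNA 5.64 and 6.25 against 8.08 and 7.90. SCe and Rptor fl/fl organoids were both compared with the same WT lines, so the values of H2afv, H2afz and H3f3a, lower in either comparison, share their controls.

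Rptor fl/fl was then set against SCe organoids in both assays. In mRNA the groups differ by label in Rptor, in RPL22.HA and in medium, which cannot be told apart. In mRNA, 5 of 42 tested histone genes were lower and 0 higher, against 21.8% and 21% of all tested genes. Without adjustment 8 were lower and 1 higher at p under 0.05, and DESeq2 called 14 lower and none higher. Such counts, given without the share of all genes, compare settings only. The 5 were Hist3h2ba (log2 -3.92, SE 0.33), Hist1h1c (-3.15, SE 0.49), H1fx (-2.26, SE 0.60), H1f0 (-1.61, SE 0.20) and H3f3b (-0.88, SE 0.20), with adjusted p between 0.00174 and 0.0325 in edgeR. They are the same genes that were higher in SCe than in WT, and the comparisons share the SCe lines. The median over the 42 genes was -1.39, and without SCe replicate 1 it was -0.18, with 10 of 37 genes lower and 4 higher, against 30.2% and 30.6% of all tested genes. Without Rptor fl/fl line 1 or line 2, 2 genes were lower, H1f0 and Hist3h2ba, and with the replicate number as a block H1fx was not called (adjusted p = 0.115).

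In footprints, 4 of 69 tested histone genes were lower in Rptor fl/fl than in SCe organoids and 0 higher, against 9.84% and 6.63% of all tested genes. No gene was higher at an unadjusted p under 0.05, where 12 were lower, and DESeq2 called 9 lower and none higher. For these counts the share of all genes is not given, and they compare settings only. H1f0 footprints were 355, 309 and 324 CPM in Rptor fl/fl and 567, 638 and 806 in SCe (log2 -1.03, SE 0.19, adjusted p = 0.0081, edgeR). Hist3h2ba was at 8.77, 5.08 and 10.3 against 121, 113 and 40.2 (log2 -3.46, SE 0.45, adjusted p = 0.00239), and H1fx at 0.829, 0 and 0 against 3.79, 6.83 and 3.69 (log2 -4.04, SE 1.01, adjusted p = 0.0281). The groups did not overlap in these 3 genes, which were lower in mRNA as well. Hist1h2bn, whose coding sequence is 11.6% its own, was at 128, 95.7 and 85.7 against 973, 199 and 304 (log2 -2.26, SE 0.53, adjusted p = 0.0219).

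The cluster genes varied widely between the SCe footprint libraries. All cluster genes together were 42010, 38920 and 38740 CPM in Rptor fl/fl lines, and 85550, 49290 and 30020 in SCe lines, so that the Rptor fl/fl lines lay inside the SCe range. The same held for H2A, H2B, H3 and H4, and H4 was 10600, 10670 and 10200 against 26460, 14110 and 7328 CPM. The H1 class was steadier, at 8295, 7378 and 7066 in Rptor fl/fl and 7718, 7787 and 6109 in SCe. In SCe replicate 1 the epithelial markers summed to 5879 CPM, against 9131 and 9174 in the others and 11830 to 12060 in Rptor fl/fl, and erythroid markers to 124 CPM, against 0.853 and 62.0. Their part in the result was not tested. Without SCe replicate 1 the median over members was 0.00, where it was -0.59 with all libraries, and 4 genes were lower and 4 higher, where 13.4% and 10.4% of all tested genes were. Without SCe replicate 3, 24 genes were lower, against 10.6% of all tested genes, and without Rptor fl/fl replicate 2 or replicate 3 only 1, Hist3h2ba.

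**Figure D4:**
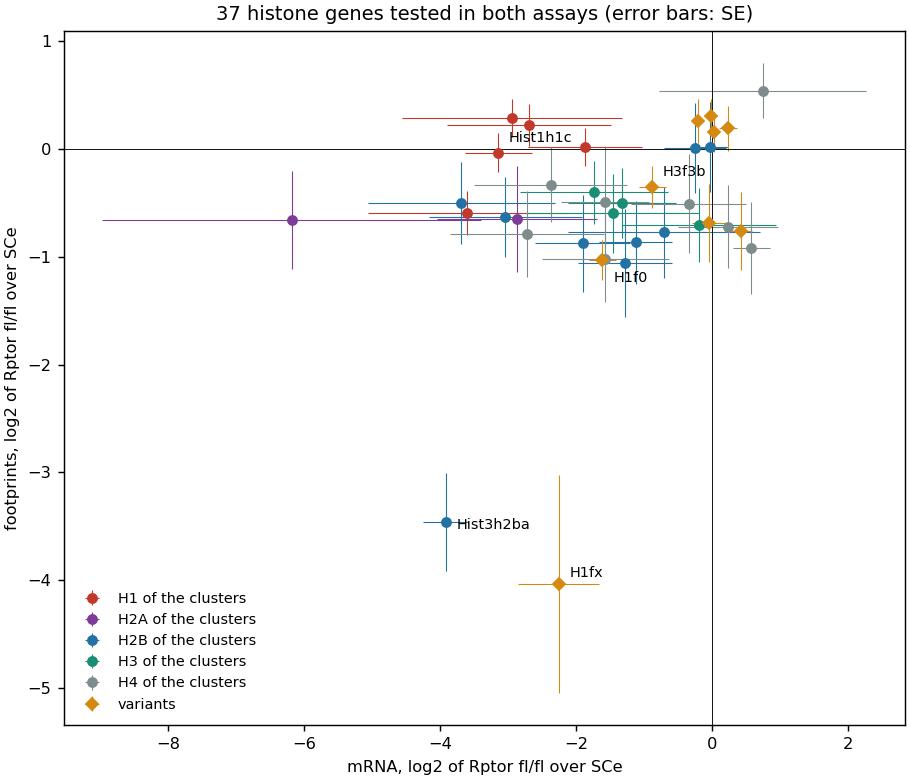
Log2 difference of Rptor fl/fl over SCe organoids in footprints against that in mRNA for the 37 histone genes tested in both assays, with bars for the SE and colours for the classes. Hist3h2ba and H1fx lie low in both, and Hist1h1c lies at -3.15 in mRNA and -0.03 in footprints.

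Translation efficiency was taken as the change of footprints beyond that of mRNA, the interaction of assay and group. The Rptor fl/fl footprints came from lines with RPL22.HA and the Rptor fl/fl mRNA from lines without it by label. A difference between these lines cannot be told apart from a change in translation. Of 37 tested histone genes, 1 was higher in Rptor fl/fl organoids and 0 lower, against 1.12% and 1.81% of all tested genes. At an unadjusted p under 0.05, 8 were higher and 2 lower, and DESeq2 called 3 higher and none lower. Here too the share of all genes is not given, and the counts compare settings only. The gene was Hist1h1c (log2 3.16, SE 0.45, adjusted p = 0.00849, edgeR). Its mRNA was 16.3 and 15.5 CPM in Rptor fl/fl and 229, 98.5 and 94.8 in SCe, whereas its footprints were 1571, 1403 and 1400 against 1681, 1507 and 1282, which overlap (log2 -0.03, SE 0.18, adjusted p = 0.928). The mRNA that was counted is the polyadenylated part, and how much of the footprints it carried cannot be told apart here. The other 4 tested H1 cluster genes did not pass, with adjusted p from 0.156 to 0.236. The mRNA differences of Hist1h1b, Hist1h1d and Hist1h1e were smaller without SCe mRNA line 1. With all lines, the 5 H1 cluster genes lay between -3.60 and -1.86 in mRNA. Hist1h1d, at 3.24 in the interaction, was 19.5 CPM in SCe line 1 and 0.856 in line 2, and without line 1 its mRNA difference was -0.13. Without line 1 that of Hist1h1b was -1.06 (adjusted p = 0.0702, edgeR), and that of Hist1h1e was -0.77 and called lower (adjusted p = 0.049). For Hist1h1c the adjusted p was 0.0683 without the mRNA of Rptor fl/fl line 1, 0.0506 without that of line 2 and 0.0586 with the replicate number as a block, so that no histone gene was called in these 3 fits.

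In mice, cluster histone footprints were lower in Rptor fl/fl than in WT animals. Of 66 tested histone genes, 26 were lower and 1 higher, against 5.97% and 7.48% of all tested genes. Of the 26, 25 were cluster genes and the other was H2afv. The median log2 difference was -0.35 over the 66 genes, with 61 below 0, -0.40 over 57 cluster genes, -0.14 over 9 variant genes and -0.02 over all genes. Summed over all cluster genes, the level was 6333, 6444 and 6478 CPM in Rptor fl/fl and 7879, 8276 and 8322 in WT mice.

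**Figure D5:**
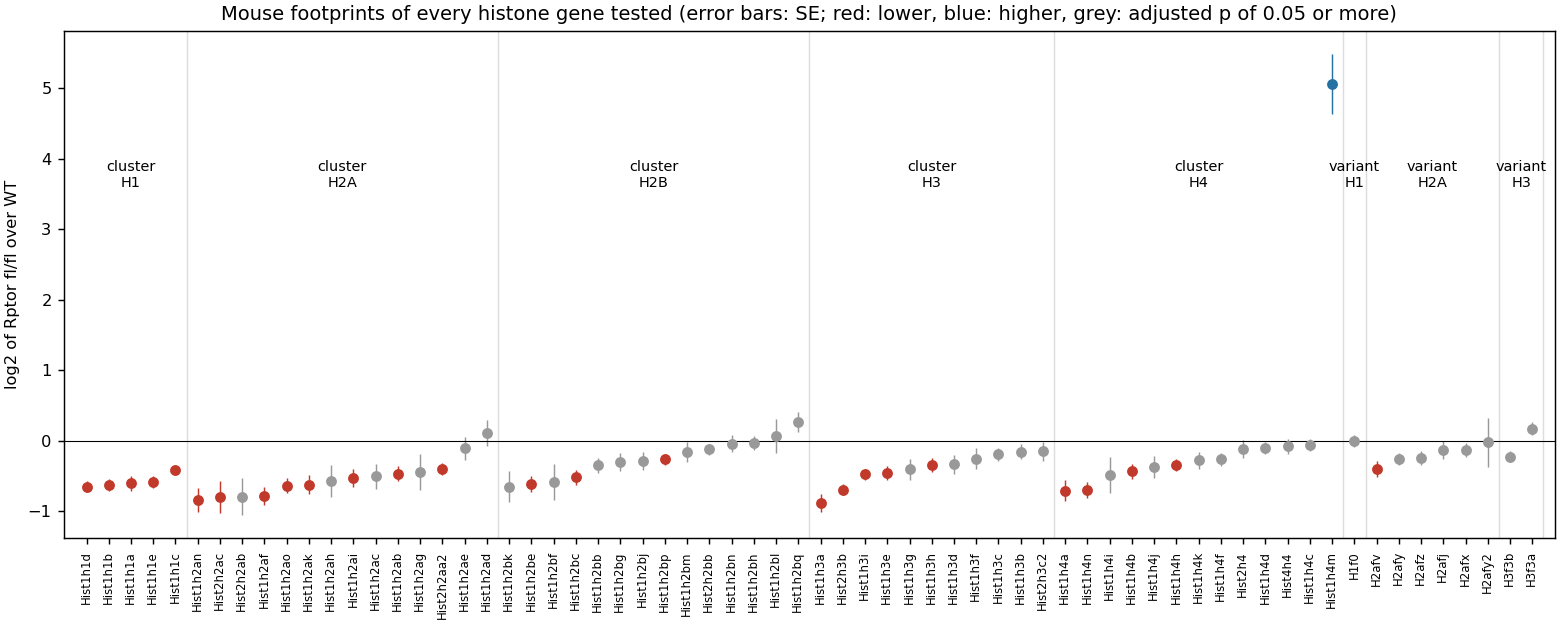
Log2 difference of Rptor fl/fl over WT mouse footprints for the 66 tested histone genes, sorted by class, with bars for the SE and red for the 26 called lower. All 5 H1 cluster genes are red, and Hist1h4m, the gene called higher (blue), stands alone at 5.06.

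H1 was the class in which all 5 tested cluster genes passed the test. Hist1h1d footprints were 157, 144 and 145 CPM in Rptor fl/fl and 235, 220 and 244 in WT mice (log2 -0.65, SE 0.08, adjusted p = 5.88e-05, edgeR). Hist1h1b was at 192, 172 and 158 against 270, 265 and 265 (log2 -0.62, SE 0.09, adjusted p = 0.000152), and Hist1h1e at 286, 270 and 234 against 388, 387 and 400 (log2 -0.58, SE 0.08, adjusted p = 0.000229). Hist1h1a and Hist1h1c fell by 0.60 and 0.42 on the log2 scale. In the 5 genes no Rptor fl/fl mouse reached the lowest WT mouse. The H1 variant H1f0 was 152, 139 and 134 CPM against 142, 138 and 143, with a log2 difference of 0.00 (SE 0.08) and overlapping groups.

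In the core classes, 8 of 14 tested H2A cluster genes, 3 of 14 H2B, 5 of 11 H3 and 4 of 13 H4 were lower. The largest falls with groups that did not overlap were those of Hist1h3a, at 83.7, 100 and 101 CPM against 221, 179 and 147 (log2 -0.88, SE 0.13, adjusted p = 0.000229, edgeR), and Hist1h2an, at 12.7, 18.0 and 13.2 against 28.0, 24.9 and 25.8 (log2 -0.84, SE 0.17, adjusted p = 0.00372). Hist1h2af (-0.78, SE 0.13), Hist1h4a (-0.71, SE 0.14), Hist1h4n (-0.69, SE 0.12) and Hist2h3b (-0.69, SE 0.08) followed. The class sums do not depend on how reads were divided within a class. H2A was 829, 855 and 903 CPM in Rptor fl/fl and 1227, 1226 and 1216 in WT, 0.705 times as high, and H3 was 1192, 1208 and 1212 against 1564, 1720 and 1616, 0.737 times. H1 was 0.689 times as high, H2B 0.875 and H4 0.870. In all 5 cluster classes the 3 Rptor fl/fl mice lay below the 3 WT mice.

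Hist1h4m and Hist1h4n have the same coding sequence, and no read of it distinguishes them. Hist1h4m was 158, 125 and 86.7 CPM in Rptor fl/fl and 16.6, 0 and 3.10 in WT mice (log2 5.06, SE 0.43, adjusted p = 8.08e-07, edgeR), and Hist1h4n was 199, 243 and 269 against 321, 380 and 437. Their sum was 358, 367 and 356 CPM against 338, 380 and 440, with overlapping groups.

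Leaving out each mouse in turn gave between 19 genes lower, without WT mouse 3, and 32, without Rptor fl/fl mouse 1, and 14 of the 26 kept the call in all 6 fits, the 5 H1 genes among them. The share of all genes called in these fits is not given, so the counts compare the fits only. Without WT mouse 3, 2 genes were higher. Other lists moved with the result. The summed S phase genes were 703 to 797 CPM in Rptor fl/fl and 840 to 929 in WT mice, with 6 of 20 lower and 0 higher, led by Mcm2 (log2 -0.52, adjusted p = 0.0149, edgeR). All 6 mitotic markers together were 412 to 499 CPM against 551 to 597, and the 5 stem cell markers 347 to 529 against 550 to 577. Most of the latter sum was Olfm4, at 279 to 330 CPM against 454 to 480, while in Rptor fl/fl mouse 1 Lgr5 was 45.6 CPM, against 7.73 to 11.3 in WT mice, and Smoc2 107, against 20.1 to 38.7. Erythroid markers, at 435 to 538 CPM against 81.2 to 95.6, went the other way, and the immune sum overlapped, at 3418 to 3809 against 3740 to 3855, although Jchain within it was lower in every Rptor fl/fl mouse (724 to 778 against 992 to 1061). The 6 epithelial markers together were 17350 to 20140 CPM against 16860 to 17480, and the groups overlapped. Of these, Krt20 (4164 to 4846 against 3409 to 3586), Cdh1 (1031 to 1064 against 784 to 852) and Epcam (1930 to 2023 against 1639 to 1732) were higher in every Rptor fl/fl mouse. Vil1, Krt8 and Krt18 are given only within the sum. Their part in the result was not tested.

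Of the variants not yet described, H2afx and H2afy showed no call in any comparison within an assay. H2afx footprints in mice were 175, 196 and 186 CPM in Rptor fl/fl and 170, 194 and 228 in WT, and H2afy footprints 92.5, 91.5 and 91.7 against 122, 110 and 105 (adjusted p = 0.0689, edgeR). H2afv, one of the H2A.Z genes, was 53.8, 64.0 and 66.9 against 67.9, 86.3 and 84.9 in mice (log2 -0.40, SE 0.11, adjusted p = 0.028, edgeR). DESeq2 did not call it (adjusted p = 0.0795), nor did edgeR without WT mouse 2 (0.124), WT mouse 3 (0.171) or Rptor fl/fl mouse 2 (0.0909). Its organoid footprints overlapped, at 173, 173 and 164 in Rptor fl/fl and 186, 154 and 109 in SCe. H2afz was lower in mRNA of Rptor fl/fl than of WT organoids, but its mouse footprints overlapped, at 167, 143 and 171 against 194, 171 and 206. H2afj mRNA did not pass the test in SCe against WT (log2 -0.25, adjusted p = 0.193) or in Rptor fl/fl against WT (log2 0.15), and without SCe line 1 it was lower in SCe than in WT (log2 -0.34, adjusted p = 0.0454) and higher in Rptor fl/fl than in SCe (log2 0.51, adjusted p = 0.0367). H2afy2, which encodes macroH2A2, reached 0.832 and 0.946 CPM in SCe mRNA lines 2 and 3 and was 0 in line 1, and without line 1 it was higher than in WT (log2 4.84, adjusted p = 0.00297). H2afb1, H2afb2 and H2afb3 were at 0 in every library, which allows up to 3 reads in each.

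Genes that process histone mRNA, carry histones, remove their acetyl groups or act in S phase were counted from lists. In SCe against WT mRNA, where 22.4% of all genes were higher and 19.9% lower, 1 of 15 processing genes was higher and 6 lower, led by Tut4 (log2 2.07, adjusted p = 0.00127, edgeR), which adds uridines to histone mRNA, and Upf1 (-0.80, adjusted p = 0.00937), which acts in its decay. Of 20 histone chaperones 3 were higher and 5 lower, and the smallest adjusted p were those of Ipo4 (0.73) and Chaf1b (0.77). Of 10 tested deacetylase genes 3 were higher and 2 lower, with Hdac1 at 0.80 (adjusted p = 0.00159) and Hdac6 at 0.71. Of 20 S phase genes 3 were higher and 1 lower, with Rrm2 at 0.94 and E2f1 at 0.64. Slbp, which binds the stem-loop, did not pass the test in SCe against WT (0.02, SE 0.07, adjusted p = 0.833) nor in Rptor fl/fl against WT (-0.18, SE 0.06, adjusted p = 0.0872). Of 9 cluster genes listed as also polyadenylated, 2 were higher and 0 lower, Hist3h2ba and Hist1h1c.

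In Rptor fl/fl against WT mRNA, where 11.6% of all genes were higher and 11% lower, 1 of 15 processing genes was higher and 2 lower, Eri1 (log2 -0.39, adjusted p = 0.0233, edgeR), a nuclease that trims histone mRNA ends, and Casp8ap2 (-0.30, adjusted p = 0.03). Of 20 chaperones 2 were higher and 5 lower, led by Nasp (-0.50, adjusted p = 0.0135), which binds H3 and H4, and Hat1 (-0.44, adjusted p = 0.017), which acetylates new H4. Of 10 deacetylase genes 3 were higher, with Hdac7 at 0.98 and Hdac10 at 0.53, and of 20 S phase genes 3 were lower, with Ccne2 at -0.48 and Pcna at -0.32. Among 7 tested polyadenylated cluster genes Hist1h1c was lower.

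In Rptor fl/fl against SCe mRNA, where 21% of all genes were higher and 21.8% lower, 5 processing genes were higher and 1 lower (Upf1 0.81, Eri1 -0.46), 1 chaperone was higher and 2 lower (Ubn1 0.91, Hat1 -0.68), 3 deacetylase genes were higher and 4 lower (Hdac7 2.45, Hdac6 -0.84), and 1 S phase gene was higher and 4 lower (Rrm2 -1.20, E2f1 -0.81). In footprints, where 6.63% of all genes were higher and 9.84% lower, 1 of 14 processing genes was higher and 1 lower (Tut4 -9.73, Cpsf2 0.63), 2 chaperones were higher and 2 lower (Ubn1 1.50, Rbbp4 -0.60), 1 deacetylase gene was higher and 2 lower (Hdac1 -1.13, Hdac3 -0.99), and 2 S phase genes were lower (Rrm2 -0.53, Ccne1 -0.96). In the interaction, Tut4 was lower (-11.5) and Rrm2 higher (0.73), and no chaperone or deacetylase gene was called. Log2 values of the size of the 2 for Tut4 arise from counts near 0. Of 15 processing genes, 1 was at 0 in every Rptor fl/fl footprint library and 0 were in SCe. No fold is read from these Tut4 values.

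In mouse footprints, where 5.97% of all genes were lower and 7.48% higher, 1 of 13 processing genes was higher, Tut7 (log2 0.57, adjusted p = 0.000288, edgeR), and 1 lower, Srrt (-0.51, adjusted p = 0.00212). Of 20 chaperones 2 were lower, Hjurp (-0.51, adjusted p = 0.00214), which loads the centromeric H3, and Chaf1b (-0.82, adjusted p = 0.0421), a subunit of the complex that loads H3 and H4 behind the replication fork. No deacetylase gene was called by edgeR, the smallest adjusted p being 0.228 for Hdac8. Of 5 tested polyadenylated cluster genes 2 were lower, Hist1h1c and Hist1h2bc. In footprints against mRNA, Slbp was higher by 1.12 in SCe and 1.67 in Rptor fl/fl organoids, far below the cluster medians. S phase genes were higher in 10 and 16 of 20 and lower in 1 and 1, chaperones higher in 7 and 11 and lower in 5 and 6, processing genes higher in 5 and 6 of 15 and lower in 5 and 6, and deacetylase genes higher in 0 and 1 of 10 and lower in 4 and 5. Of all tested genes, 20.5% and 34.5% were higher and 27% and 41.1% lower in SCe and Rptor fl/fl organoids.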

How the data were processed

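RNA-seq of poly(A) RNA (11 libraries) and Ribo-seq of organoids and mice (6 libraries each) were used. The authors trimmed footprint reads with cutadapt 1.18 and quantified all reads with Salmon 1.1.0 on GENCODE vM21 sequences, and the deposited estimated counts are unscaled and need not be whole. TPM, as deposited, was not used. Counts were summed per gene, rounded, and technical libraries of a line were added. edgeR 4.0.16 (R 4.3.3, filterByExpr, TMM, quasi-likelihood test, Benjamini-Hochberg at 0.05 over all genes tested) gave every adjusted p not printed as that of DESeq2. CPM are counts over the TMM-scaled library size. For translation efficiency, assay and group were fitted with their interaction. Footprints against mRNA used the deposited effective length as an offset. Footprints on upstream reading frame entries were left out. Alternatives were DESeq2 1.42.0, no count filter, TMM without histone genes, other length offsets, separate technical libraries, a replicate block and leaving out each replicate. Deviations of same-numbered libraries from their group means correlated at 0.284, 0.147 and 0.185 between the assays of SCe organoids. Between mRNA groups they correlated at 0.416 in Rptor fl/fl against WT. The values were 0.33 and 0.294 in Rptor fl/fl against SCe mRNA, and 0.241 and 0.219 in SCe against WT. Between the assays of Rptor fl/fl organoids they were -0.005 and -0.023. By its methods, the study induced some Rptor fl/fl material in vitro to have paired samples, but the library titles name no pairs. The main fits were unpaired, and whether same-numbered lines share a source was not tested. Scripts were tested on simulated data.

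Named genes are every called member (the 6 largest falls with groups that do not overlap where over 12 were called), the 2 highest per length in each cluster class, the tested variants, and Rptor. Of each list the 2 genes with the smallest adjusted p are named in comparisons between groups. Stem cell markers, Slbp outside that rule and genes under other fits were singled out after their values were seen. Members and lists were chosen with earlier results of these data known. Depths of 772077 to 67598878 counts limit genes with few reads, and PCR reads are not independent molecules. Labels number organoid lines and mice, and do not say whether lines came from separate animals, so that p-values of organoids measure the spread between these lines.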

Additional observations from a re-analysis of the deposited data

Results flagged for a closer look

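In the Rptor fl/fl group, footprints and mRNA came from lines of different genotype labels. The change of Hist1h1c footprints beyond the change of its mRNA, Rptor fl/fl against SCe, passed the test of the interaction of assay and group (log2 3.16, SE 0.45, adjusted p = 0.00849, edgeR). It was not called when replicate numbers entered as a block (adjusted p = 0.0586) and without the mRNA of Rptor fl/fl line 1 (0.0683) or line 2 (0.0506).

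Upstream reading frames have entries of their own in the organoid footprint files, outside the comparisons above, and 18 histone genes had more than 3 reads on them in at least 1 library. H1f0 had the most, with up to 873 reads, and per 100 coding reads it had 20.4, 28.8 and 26.5 in Rptor fl/fl and 83.4, 59.3 and 18.8 in SCe lines. The highest counts were 289 for H2afz, 181 for Hist1h1e, 131 for H3f3b, 104 for H2afx, 91 for H2afy and 89 for Hist2h2aa1, whose coding sequence has no entry there. They were 78 for H3f3a, 43 for Hist1h1b, 35 for Hist1h2ae, 31 for H2afv, 19 for H2afj and 13 for Hist1h2bb. Hist1h1d had 7, Hist1h1a and Hist2h2ab 5 each, Hist1h2ad 4.1 and Hist1h2bm 4.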

How the results depend on the processing

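With DESeq2, histone genes higher in SCe than in WT mRNA were 11, lower in Rptor fl/fl than in SCe mRNA 14 and in footprints 9, and higher in the interaction 3. With technical libraries kept separate they were 11 higher in SCe against WT, 1 higher in Rptor fl/fl against WT, and 12 lower and 1 higher in Rptor fl/fl against SCe mRNA. Without a count filter 7 were lower in footprints. Counts under other fits or without adjustment compare settings only, here and above, where no share of all tested genes is printed beside them.

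With the replicate number as a block, 1 gene was lower in SCe than in WT and 0 were higher in the interaction, and the count of calls in the other comparisons stayed within 1.5 times.

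Without a length offset the ratio of footprints to mRNA was -1.02 for Hist2h2be and -0.18 for H1f0 in SCe and -0.66 for Hist2h2be in Rptor fl/fl organoids, where 2 genes were lower. With the full sequence length, chosen after seeing the data, Hist2h2be (0.61, adjusted p = 0.375) and H1f0 (0.53, adjusted p = 0.0928) were not called in SCe.

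Leaving out 1 library gave 1 to 11 higher and 1 to 9 lower in SCe against WT, 0 to 1 higher and 0 to 2 lower in Rptor fl/fl against WT, and 0 to 4 higher and 2 to 10 lower in Rptor fl/fl against SCe mRNA. It gave 0 to 4 higher and 1 to 24 lower in footprints, 0 to 2 higher in the interaction, and 1 to 2 higher and 19 to 32 lower in mice. Footprints over mRNA were higher for 64 to 68 genes and lower for 0 to 1 in SCe, and higher for 68 to 69 and lower for 1 to 2 in Rptor fl/fl organoids.

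Scaled by total counts, WT mRNA summed to 22.0 CPM for H1, 8.85 for H2A, 7.85 for H4 and 2139 for all variants, Rptor fl/fl mRNA to 3.31 for H3, WT mice to 1527 for H1 and 1257 for H2A, and Rptor fl/fl mice to 1539 for H2B, 1171 for H3 and 1700 for H4. Beyond construction with fewer libraries or genes, the cause was not tested. With as few as 772077 counts in a library, genes with few reads could not be resolved.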
